A study of Mus musculus with 12 samples.

Results

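Renal gluconeogenesis was described through 7 genes, Pck1, G6pc, Fbp1, Pcx, Mdh1, Slc37a4 and Got1, taken by name from the 19938 genes that had a probe set with exactly 1 gene symbol. All 7 were on the array, each with 1 such probe set, and no filter on low values was applied. Amplified RNA of dissected renal cortex was hybridised to 12 mouse gene arrays (Affymetrix), with 3 arrays for each of 4 groups. In every group the mice carried nr3c1 flox/flox, loxP-flanked alleles of the gene of the glucocorticoid receptor (GR). The GR-deficient mice also carried Pax8-Cre, a recombinase active in renal tubular epithelium, so that blood, vascular and interstitial cells keep the receptor, and the control mice carried no Cre. The GR-deficient AKI group and the control AKI group received glycerol into muscle 24 hours before dissection, which breaks down muscle and injures the kidney (acute kidney injury, AKI). The GR-deficient healthy group and the control healthy group were a cohort of their own that was not injected, so a difference between AKI and healthy mice carries any difference between the cohorts, and a genotype difference carries any effect of Pax8-Cre. The sources used here give no age, sex or strain. Nothing in the labels says that the replicates were separate animals, so the p-values reflect only how much these samples varied, which could be technical.

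Gluconeogenesis makes glucose from lactate, glutamine, glycerol and other precursors. In the kidney it takes place in the proximal tubule, which shares with the liver the enzyme needed to set free glucose from its phosphate. Pyruvate is carboxylated in mitochondria by Pcx, carbon leaves as malate or aspartate and is turned back into oxaloacetate by the cytosolic enzymes Mdh1 and Got1, and Pck1 makes phosphoenolpyruvate from it. Fbp1 removes a phosphate from fructose bisphosphate, Slc37a4 carries glucose phosphate into the endoplasmic reticulum, and G6pc splits it there. Glucocorticoids and acidosis are known inducers of Pck1 in the kidney. Only Fbp1, G6pc, Pck1 and Pcx catalyse steps that glycolysis cannot run backwards, and Mdh1 and Got1 also serve the malate-aspartate shuttle in many cell types.

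The values are log2 levels, on which a difference of 1 is a factor of 2. A gene was called at an adjusted p below 0.05 in limma, with Benjamini-Hochberg adjustment over 19938 genes. Limma is a linear model in which each gene's own variance is drawn toward a value common to all genes. Every adjusted p below comes from that model. Errors of differences are standard errors of the fit, and errors of group means are SDs over 3 arrays. Nr3c1, the targeted gene, measured 8.10, 7.96 and 7.87 in GR-deficient AKI mice and 8.82, 8.89 and 8.86 in control AKI mice, and 8.18, 8.13 and 8.21 in GR-deficient healthy mice against 9.65, 9.48 and 9.52 in control healthy mice. It was lower with GR deficiency in AKI by 0.88 ± 0.10 (adjusted p = 2.69e-05) and in healthy mice by 1.38 ± 0.10 (adjusted p = 1.73e-05) and on every GR-deficient array lay below every control array of the same condition. Of 19 proximal tubule markers the 3 with the highest means over 12 arrays were Kap (14.09), Slc27a2 (13.69) and Slc34a1 (13.39), and the dimmest was Slc22a7 (9.56). Control AKI replicate 1 had the narrowest spread of values (SD 1.88, against 1.96 to 2.06 on the others), and GR-deficient healthy replicate 1 had the lowest proximal tubule marker mean of the healthy mice (12.30). Without control AKI replicate 1, 6 genes were lower in AKI in control mice, 6 were higher with GR deficiency in AKI, and 5 had a called interaction, as with all arrays. Without GR-deficient healthy replicate 1 those counts were also 6, 6 and 5, and no gene of the 7 was called in AKI in GR-deficient mice.

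The promoter windows are shown for Pck1 and G6pc, the classical hormone-controlled genes of the route, and for Got1, the member that did not move with the others. Each is 300 bases from RefSeq on GRCm38.p6, from 250 before to 50 after the transcript start, 5′ to 3′ on the gene's own strand. Capitals mark the motifs searched on both strands, which were TGACG, the core of the cAMP response element, GTTAAT, part of the HNF1 recognition sequence, TATAAA, the TATA motif, and TGTTCT, the hexamer of the glucocorticoid response element.
Pck1, chr2:173152823-173153122, plus strand: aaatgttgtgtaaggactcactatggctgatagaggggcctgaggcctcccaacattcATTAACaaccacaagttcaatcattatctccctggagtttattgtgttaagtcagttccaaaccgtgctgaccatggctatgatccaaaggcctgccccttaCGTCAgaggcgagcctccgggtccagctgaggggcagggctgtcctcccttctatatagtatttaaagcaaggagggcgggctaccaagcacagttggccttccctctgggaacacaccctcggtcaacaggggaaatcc
G6pc, chr11:101367466-101367765, plus strand: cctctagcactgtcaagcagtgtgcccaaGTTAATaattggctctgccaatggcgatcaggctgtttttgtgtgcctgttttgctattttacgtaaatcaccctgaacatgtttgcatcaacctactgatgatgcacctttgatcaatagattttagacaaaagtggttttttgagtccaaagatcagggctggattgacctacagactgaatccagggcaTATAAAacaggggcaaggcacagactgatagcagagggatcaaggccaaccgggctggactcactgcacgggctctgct
Got1, chr19:43524556-43524855, minus strand: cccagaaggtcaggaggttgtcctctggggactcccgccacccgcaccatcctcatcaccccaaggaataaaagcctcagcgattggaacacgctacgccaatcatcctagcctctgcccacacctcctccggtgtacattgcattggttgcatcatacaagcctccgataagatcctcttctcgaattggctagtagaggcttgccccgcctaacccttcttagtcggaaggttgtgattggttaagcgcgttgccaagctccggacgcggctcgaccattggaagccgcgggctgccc

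In the Pck1 window the reverse complement of TGACG began 90 bases upstream of the start and that of GTTAAT 192 bases upstream. The G6pc window held GTTAAT 221 bases and TATAAA 29 bases upstream. The Got1 window held none of the 4 motifs, and neither did those of Fbp1, Pcx and Mdh1. All 7 genes matched the promoter table, with 10 windows in all, since Pcx had 2 and Slc37a4 had 3. TGACG lay in windows of 2 genes, Pck1 and Slc37a4 (20.8% of 32851 promoters hold it), GTTAAT in windows of Pck1 and G6pc (7.1% of promoters), and TATAAA in windows of G6pc and Slc37a4 (13.6%). TGTTCT was in 0 of the 10 windows, and 19% of all promoters hold it. These matches describe letters only, and an element farther from the start is not in the window.

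The response to AKI differed in size between the genotypes. In control mice 6 of the 7 genes fell in AKI, all but Got1, with a median difference of -1.28 over the 7 genes, beside a median of 0.001 over all genes and 15.1% of all genes called lower. In GR-deficient mice 1 of the 7 genes, Mdh1, fell, by 0.35, and the median of the 7 genes was -0.32, beside -0.026 over all genes and 1.35% of all genes called lower (3.29% higher). In control mice no AKI array of those 6 genes overlapped a healthy one, which held for 20.4% of all genes in that direction. In GR-deficient mice the AKI arrays lay below all healthy arrays for 4 genes, Pcx, Mdh1, Fbp1 and G6pc (12.5% of all genes), and above them for Got1 (12.8% of all genes). Fewer proximal tubule cells and less of an RNA per cell cannot be told apart in RNA of whole cortex.

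**Figure D1:**
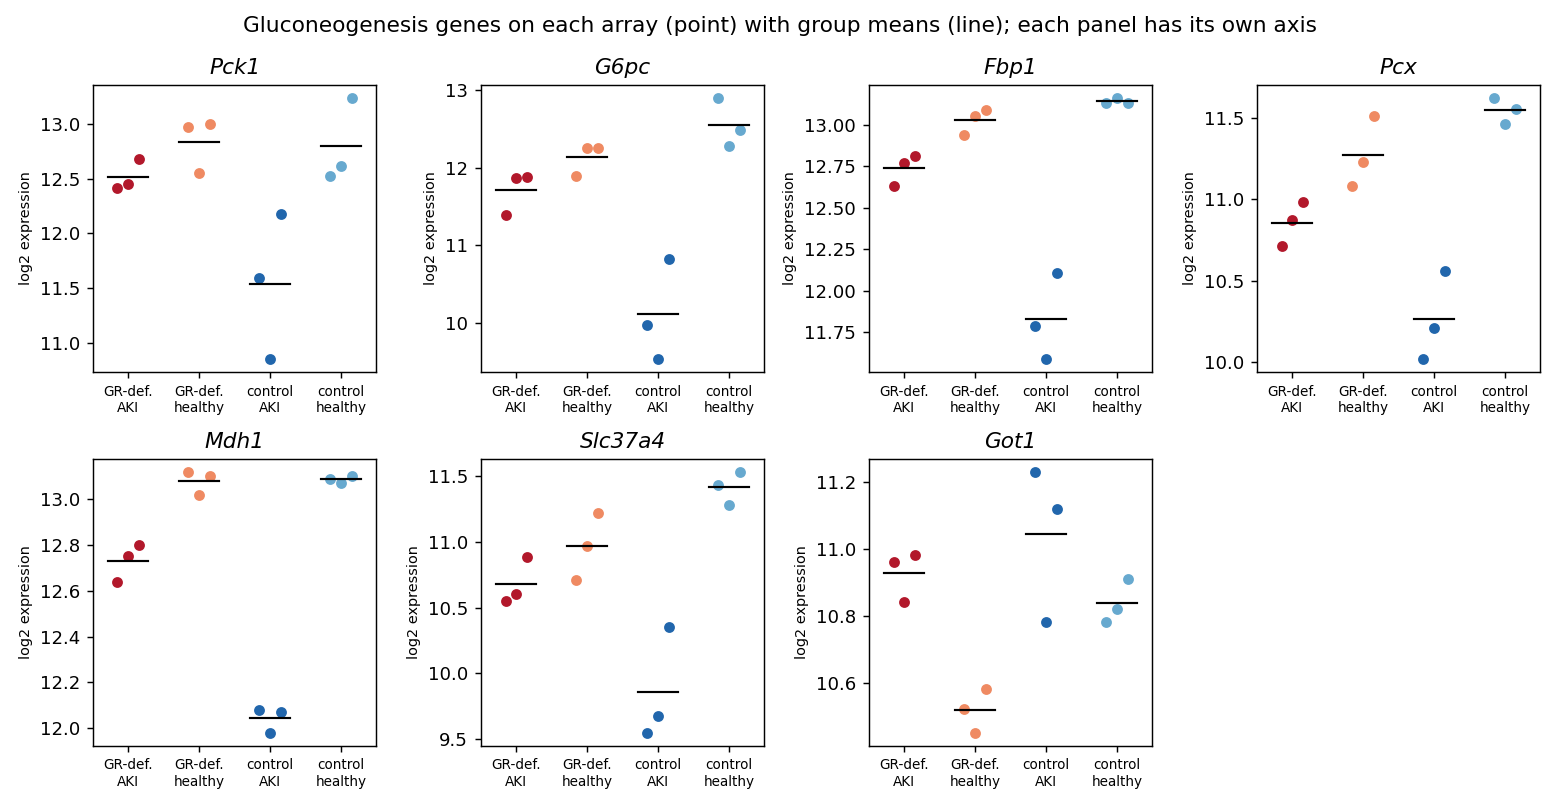
Log2 expression (y axis, a scale of its own in each panel) of the 7 genes on each of 12 arrays, with the 4 groups along the x axis, a point per array and a line at the group mean (n = 3). For all genes except Got1 the control AKI arrays have the lowest mean of the 4 groups, 11.83 for Fbp1 and 12.04 for Mdh1, and the GR-deficient AKI arrays lie above them.

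Pcx, which feeds pyruvate carbon into oxaloacetate (chromosome 19), measured 10.71, 10.87 and 10.98 in GR-deficient AKI mice and 11.08, 11.23 and 11.51 in GR-deficient healthy mice. The 2 groups did not overlap, and the difference of -0.42 ± 0.14 was not called (adjusted p = 0.122). Control AKI mice had 10.02, 10.21 and 10.56, and control healthy mice 11.62, 11.46 and 11.55. Here every AKI array lay far below every healthy array, and Pcx fell by 1.28 ± 0.14 on the log2 scale, to 41.2% of the control healthy level (adjusted p = 8.86e-06).

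Mdh1, the cytosolic malate dehydrogenase (chromosome 11), had the tightest groups, with SDs of 0.01 to 0.08. It measured 12.64, 12.75 and 12.80 in GR-deficient AKI mice, against 13.12, 13.02 and 13.10 in GR-deficient healthy mice. No AKI array reached a healthy one, and Mdh1 fell by 0.35 ± 0.09 (95% interval -0.55 to -0.15, adjusted p = 0.0426), the only gene of the 7 called in that genotype. That call held in 8 of 21 other settings, and quantile normalization gave -0.22 (adjusted p = 0.183). The number of the 7 genes that fell in GR-deficient mice was 0 after quantile normalization, 2 after cyclic loess, which added Pcx (adjusted p = 0.0278), and 3 with array weights, which added Pcx (adjusted p = 0.0114) and Fbp1 (adjusted p = 0.0482). In control mice the values were 12.08, 11.98 and 12.07 in AKI and 13.09, 13.07 and 13.10 in healthy mice. The gap between those groups was many times their spread, and Mdh1 fell by 1.04 ± 0.09, to 48.5% of the control healthy level (adjusted p = 7.95e-07).

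Got1, the cytosolic aspartate aminotransferase (chromosome 19), went another way. It measured 10.96, 10.84 and 10.98 in GR-deficient AKI mice and 10.52, 10.45 and 10.58 in GR-deficient healthy mice. All 3 AKI arrays were above all 3 healthy arrays, and the difference of 0.41 ± 0.12 (95% interval 0.16 to 0.66) narrowly missed the threshold (adjusted p = 0.0656) and passed it in 5 of 21 other settings. Control AKI mice had 11.23, 10.78 and 11.12, and control healthy mice 10.78, 10.82 and 10.91. These groups overlapped, since control AKI replicate 2 lay at the level of the healthy arrays, and the difference was 0.21 ± 0.12 (95% interval -0.05 to 0.46, adjusted p = 0.244). Other scalings called Got1 higher in control AKI mice, with 0.45 after quantile normalization (adjusted p = 0.0096) and 0.38 after cyclic loess (adjusted p = 0.0316), as did leaving out control AKI replicate 2 (0.34, adjusted p = 0.0395).

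Pck1, which commits oxaloacetate to glucose synthesis (chromosome 2), measured 12.42, 12.45 and 12.68 in GR-deficient AKI mice and 12.97, 12.55 and 13 in GR-deficient healthy mice. These groups overlapped, and the difference of -0.32 ± 0.27 was not called (adjusted p = 0.574). In control mice it measured 11.59, 10.85 and 12.18 in AKI and 12.53, 12.62 and 13.24 in healthy mice. The control AKI arrays were all below the healthy ones but spread over 1 log2 unit (SD 0.67), and Pck1 fell by 1.25 ± 0.27, to 41.9% of the control healthy level (adjusted p = 0.00211).

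Fbp1, the gluconeogenic fructose bisphosphatase (chromosome 13), measured 12.63, 12.77 and 12.81 in GR-deficient AKI mice and 12.94, 13.05 and 13.09 in GR-deficient healthy mice. The AKI arrays were all below the healthy arrays by a small step of -0.29 ± 0.12, which was not called (adjusted p = 0.215). Control AKI mice had 11.79, 11.59 and 12.11 and control healthy mice 13.13, 13.16 and 13.13. Fbp1 fell by 1.31 ± 0.12 in control mice, to 40.4% of the healthy level, with no overlap (adjusted p = 1.48e-06).

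G6pc, the catalytic subunit that splits glucose phosphate (chromosome 11), had the largest difference of the 7 genes. It measured 11.39, 11.87 and 11.88 in GR-deficient AKI mice and 11.89, 12.26 and 12.25 in GR-deficient healthy mice. The highest AKI array lay just below the lowest healthy one, and the difference of -0.42 ± 0.26 was not called (adjusted p = 0.436). Control AKI mice had 9.97, 9.53 and 10.82, and control healthy mice 12.90, 12.28 and 12.49. All 3 control AKI arrays stood over 1 log2 unit below the healthy ones, and G6pc fell by 2.45 ± 0.26, a 5.46-fold lower level at 18.3% of the control healthy level (adjusted p = 5.29e-06).

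Slc37a4, the glucose phosphate carrier that supplies G6pc (chromosome 9), measured 10.55, 10.60 and 10.88 in GR-deficient AKI mice and 10.71, 10.97 and 11.22 in GR-deficient healthy mice. These groups overlapped, with a difference of -0.29 ± 0.19 (adjusted p = 0.457). In control mice it measured 9.55, 9.68 and 10.35 in AKI and 11.43, 11.28 and 11.53 in healthy mice. It fell by 1.55 ± 0.19, to 34.1% of the control healthy level, the second largest difference of the 7 genes, and the groups did not overlap (adjusted p = 1.51e-05). Carrier and phosphatase of the same reaction thus had the 2 largest differences in control mice. Control AKI replicate 3 had the smallest deficit of its group for 5 of the 6 genes that fell, Mdh1 being the exception.

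The genotypes were set against each other next, on the same arrays, so the control AKI arrays serve in both this comparison and that of injury in control mice. In AKI, 6 of the 7 genes were higher in GR-deficient than in control mice, with a median of 0.82 over the 7 genes, beside -0.043 over all genes and 10.0% of all genes called higher. For each of the 6, all 3 GR-deficient AKI arrays lay above all 3 control AKI arrays, which 17.5% of all genes also did in that direction. G6pc averaged 11.71 ± 0.28 in GR-deficient AKI mice and 10.11 ± 0.66 in control AKI mice, a 3.04-fold higher level (1.61 ± 0.26, adjusted p = 0.000619). Pck1 averaged 12.52 ± 0.14 in GR-deficient AKI mice and 11.54 ± 0.67 in control AKI mice, a 1.97-fold higher level (0.98 ± 0.27, adjusted p = 0.0196). The Pck1 call depended on single arrays and on the scaling: it was lost without control AKI replicate 2, the lowest array (0.63, adjusted p = 0.0891), without GR-deficient AKI replicate 3 (0.90, adjusted p = 0.077), after cyclic loess (0.75, adjusted p = 0.0599) and with only the 2 groups in the fit (adjusted p = 0.0529).

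Fbp1 averaged 12.74 ± 0.09 in GR-deficient AKI mice and 11.83 ± 0.26 in control AKI mice (0.90 ± 0.12, 1.87-fold, adjusted p = 0.000136). Slc37a4 averaged 10.68 ± 0.18 in GR-deficient AKI mice and 9.86 ± 0.43 in control AKI mice (0.82 ± 0.19, 1.76-fold, adjusted p = 0.00641). For Mdh1 the means were 12.73 ± 0.08 in GR-deficient AKI mice and 12.04 ± 0.05 in control AKI mice (0.69 ± 0.09, 1.61-fold, adjusted p = 0.000115). The 2 groups of Mdh1 were tight beside the gap between them. For Pcx the means were 10.85 ± 0.13 in GR-deficient AKI mice and 10.26 ± 0.27 in control AKI mice (0.59 ± 0.14, 1.51-fold, adjusted p = 0.0104), and without GR-deficient AKI replicate 3 the difference of 0.53 was not called (adjusted p = 0.0526). Got1 averaged 10.92 ± 0.08 in GR-deficient AKI mice and 11.04 ± 0.24 in control AKI mice, with overlapping arrays (-0.12 ± 0.12, 95% interval -0.37 to 0.13, adjusted p = 0.564).

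In healthy mice none of the 7 genes was called between the genotypes, where 0.145% of all genes were (29 genes). The median of the 7 differences was -0.27, beside -0.009 over all genes, and 10.7% of all genes had an unadjusted p below 0.05. Slc37a4 averaged 10.97 ± 0.26 in GR-deficient healthy mice and 11.41 ± 0.12 in control healthy mice (-0.45 ± 0.19, unadjusted p = 0.0303, adjusted p = 0.405). Got1 averaged 10.52 ± 0.07 in GR-deficient healthy mice and 10.84 ± 0.07 in control healthy mice (-0.32 ± 0.12, unadjusted p = 0.0154, adjusted p = 0.342). For these genes, and for G6pc (-0.42 ± 0.26, adjusted p = 0.615) and Fbp1 (-0.11 ± 0.12, adjusted p = 0.815), all 3 GR-deficient healthy arrays lay below all 3 control healthy arrays, which 10.6% of all genes also did in that direction. Pcx differed by -0.27 ± 0.14 (adjusted p = 0.545), Mdh1 by -0.01 ± 0.09 (adjusted p = 0.992) and Pck1 by 0.04 ± 0.27 (adjusted p = 0.978), with overlapping arrays.

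**Figure D2:**
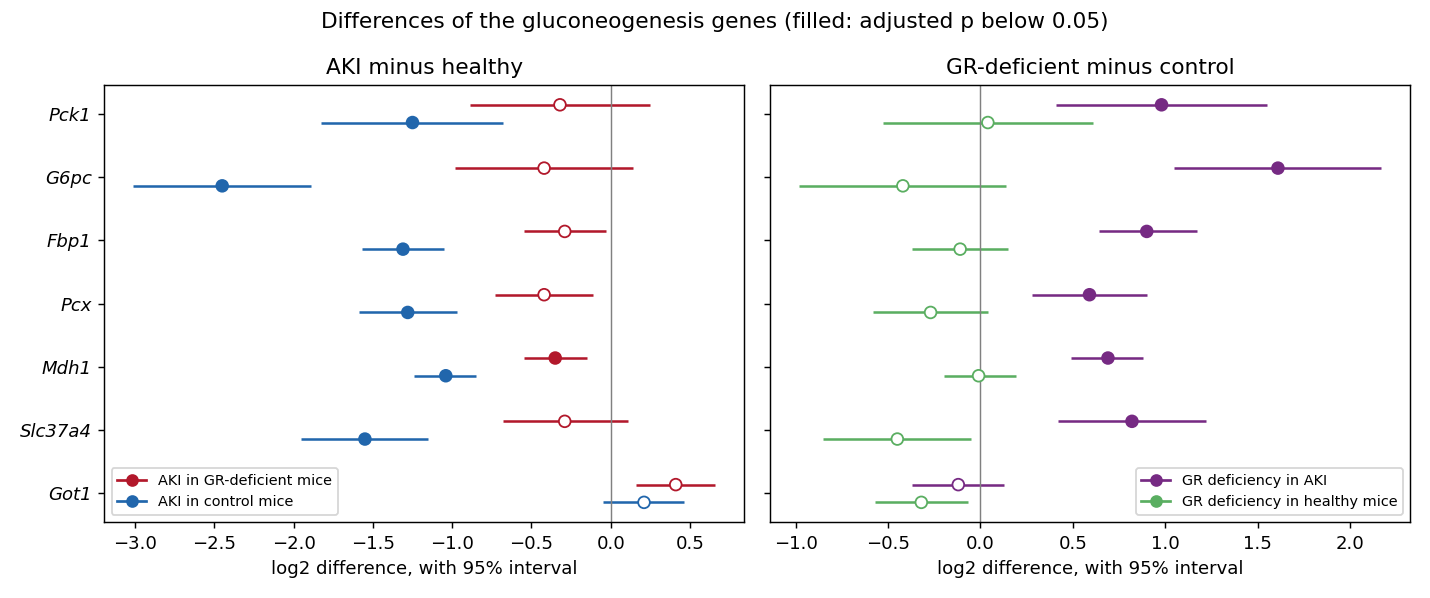
Log2 differences of the 7 genes with 95% intervals (x axis), AKI minus healthy in each genotype on the left and GR-deficient minus control in each condition on the right, with filled points for an adjusted p below 0.05. In control mice 6 points lie between -2.45 and -1.04, whereas in GR-deficient mice they lie between -0.42 and -0.29, and with GR deficiency in AKI 6 points lie between 0.59 and 1.61.

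The difference between the responses was tested as an interaction, the AKI response in GR-deficient mice minus that in control mice. It was called higher for 5 of the 7 genes, with a median of 0.93 over the 7, beside -0.034 over all genes and 7.39% of all genes called higher. The interaction was 2.03 ± 0.37 for G6pc (adjusted p = 0.00258), 1.27 ± 0.26 for Slc37a4 (adjusted p = 0.00607) and 1.02 ± 0.17 for Fbp1 (adjusted p = 0.00165). It was 0.86 ± 0.20 for Pcx (adjusted p = 0.0137) and 0.69 ± 0.13 for Mdh1 (adjusted p = 0.00296), and cyclic loess gave 0.34 for Mdh1, which was not called (adjusted p = 0.112). Pck1 had an interaction of 0.93 ± 0.38, between those of Fbp1 and Pcx, and was not called (adjusted p = 0.139). For Got1 it was 0.20 ± 0.17 (adjusted p = 0.517), and quantile normalization turned its sign to -0.06.

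The order of the 4 group means was the same for G6pc, Fbp1, Pcx, Mdh1 and Slc37a4, control healthy highest, then GR-deficient healthy, GR-deficient AKI and control AKI. In that order the neighbours control healthy and GR-deficient healthy were not called apart for any of the 5 genes, GR-deficient healthy and GR-deficient AKI only for Mdh1, and GR-deficient AKI and control AKI for all 5. For Pck1 the means of GR-deficient healthy mice (12.84) and control healthy mice (12.79) were nearly equal at the top, above GR-deficient AKI mice (12.52), and only control AKI mice (11.54) stood apart from their neighbour. For Got1 control AKI mice came highest (11.04), then GR-deficient AKI (10.92), control healthy (10.84) and GR-deficient healthy mice (10.52). Among its comparisons none was called.

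Most proximal tubule markers moved with these genes. Of 19 measured markers, 3 were lower in AKI in GR-deficient mice (0 to 8 over 22 other settings) and 19 in control mice (17 to 19), with medians of -0.25 in GR-deficient and -1.39 in control mice, and 14 were higher and 1 lower with GR deficiency in AKI (median 0.94). The mean of the 19 markers ranged over the arrays from 12.26 to 12.37 in GR-deficient AKI mice, 12.30 to 12.77 in GR-deficient healthy mice, 11.19 to 11.60 in control AKI mice and 12.79 to 12.90 in control healthy mice. Slc34a1, the phosphate transporter of the proximal brush border, differed by -0.25 in AKI in GR-deficient mice (adjusted p = 0.222) and fell by 1.52 in control mice (adjusted p = 1.01e-07). Kap, the brightest marker, averaged 13.96 in GR-deficient AKI, 14.24 in GR-deficient healthy, 13.95 in control AKI and 14.21 in control healthy mice. Its step was alike in both genotypes, and its call in control mice held in 7 of 22 other settings. The highest value on an array was 14.73 to 14.9, so Kap lay near the top of the scale, and any effect of that on its step was not tested. Slc27a2 averaged 13.66, 13.92, 13.16 and 14.04 in the same order. The 1 marker lower with GR deficiency in AKI was Slc22a7, at 8.57 in GR-deficient AKI and 9.57 in control AKI mice. Markers of the loop, distal tubule and collecting duct (8 genes) averaged 10.42 to 10.69 in GR-deficient AKI mice, 10.81 to 10.92 in GR-deficient healthy mice, 9.71 to 9.84 in control AKI mice and 10.75 to 10.84 in control healthy mice. In AKI 2 of these 8 were lower in GR-deficient mice and 5 in control mice, where the differences ran from -2.89 to 0.18. With GR deficiency in AKI 5 of the 8 were higher and 1 was lower. The myeloid marker mean (7 genes) was 7.01 to 7.18 in GR-deficient AKI mice, 6.68 to 6.87 in GR-deficient healthy mice, 7.54 to 7.90 in control AKI mice and 6.77 to 6.85 in control healthy mice. Its members split: in AKI in control mice 4 rose (Cd68, S100a8, S100a9 and Itgam) and Csf1r fell, and with GR deficiency in AKI those 4 were lower and Csf1r higher. Liver markers, included because liver expresses the whole route, had a low mean, between 6.16 and 6.40 in GR-deficient AKI mice, 6.24 and 6.41 in GR-deficient healthy mice, 6.28 and 6.46 in control AKI mice and 6.05 and 6.27 in control healthy mice. Single liver markers averaged 3.9 to 7.97 over the 12 arrays. Apoa1 alone was called higher in AKI in control mice (7.39 against 6.81) and lower with GR deficiency in AKI (6.85 against 7.39). The part of each of these lists in the results was not tested.

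Set against the marker mean of the same array, G6pc, Mdh1 and Got1 were called in AKI in control mice, where 97.5% of all genes were called on that scale. Since the markers had themselves fallen there (median -1.39), most genes rose relative to them, and a call in that direction is no more than the background. In AKI in control mice Pck1 (0.21, adjusted p = 0.435), Fbp1 (0.16, adjusted p = 0.298), Pcx (0.19, adjusted p = 0.179) and Slc37a4 (-0.08, adjusted p = 0.589) were not called relative to the markers. G6pc fell by 0.98 ± 0.23 beyond the marker mean (adjusted p = 0.000652), while Mdh1 fell less than that mean, with a relative difference of 0.42 ± 0.16 (adjusted p = 0.0181). Single markers differed by -2.60 to -0.26 in this comparison, a range that holds the -2.45 of G6pc and the -1.04 of Mdh1. Got1 rose by 1.67 ± 0.18 relative to the marker mean (adjusted p = 3.36e-07). In GR-deficient mice, where 9.97% of all genes were called, Got1 also rose relative to the markers in AKI (0.65 ± 0.18, adjusted p = 0.0304), and the other 6 genes differed by -0.18 to -0.04 and were not called.

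Between the genotypes in AKI 94.6% of all genes were called relative to the markers, so the values below are given as a description. G6pc was higher in GR-deficient mice relative to the markers (0.67 ± 0.23, adjusted p = 0.0108). Pcx was lower relative to them (-0.34 ± 0.13, adjusted p = 0.0222) and so was Got1 (-1.05 ± 0.18, adjusted p = 8.51e-05), whereas Pck1 (0.05), Fbp1 (-0.03), Slc37a4 (-0.11) and Mdh1 (-0.25) were not called. The interaction relative to the markers was 0.81 ± 0.32 for G6pc (adjusted p = 0.0266), -0.53 ± 0.23 for Mdh1 (adjusted p = 0.0341) and -1.02 ± 0.25 for Got1 (adjusted p = 0.00133), where 94.5% of all genes were called. In healthy mice none of the 7 genes was called relative to the markers, with differences between -0.16 for Slc37a4 and 0.34 for Pck1, beside 0.0301% of all genes. A relative difference shows unequal change, not which side of it changed.

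**Figure D3:**
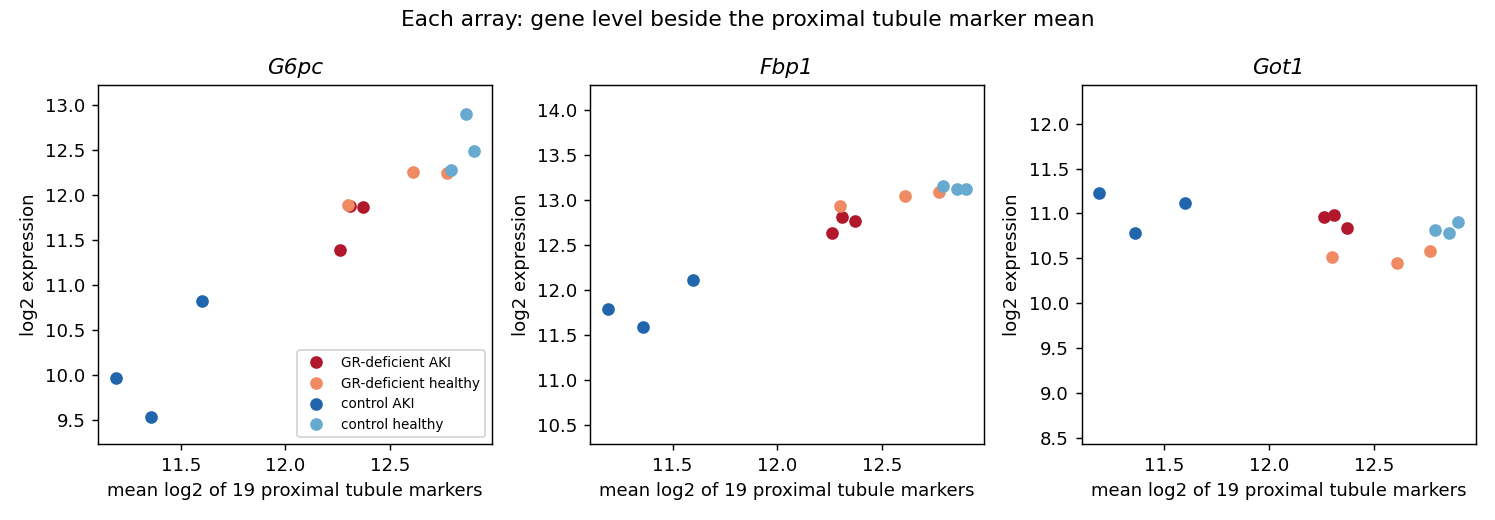
Log2 expression of G6pc, Fbp1 and Got1 (y axes of equal length in log2 units) on each of 12 arrays beside the mean log2 level of 19 proximal tubule markers on that array (x axis), coloured by group. The control AKI arrays have marker means of 11.19 to 11.60, and there G6pc and Fbp1 have their lowest values while Got1 lies at 10.78 to 11.23.

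Lists of genes around the route were described by their counts. Over 59 measured genes of 7 lists, 6 were higher and 5 lower in AKI in GR-deficient mice, 7 higher and 24 lower in AKI in control mice, and 23 higher and 6 lower with GR deficiency in AKI. In healthy mice 0 of the 59 were called, and the interaction was called higher for 21 and lower for 4. Over all genes 3.29% were called higher and 1.35% lower in AKI in GR-deficient mice, and 13.6% higher and 15.1% lower in control mice. With GR deficiency in AKI 10.0% were called higher and 7.34% lower, and the interaction was called higher for 7.39% and lower for 4.06%. In healthy mice 0.145% were called. The counts of single lists below are to be read beside the same shares.

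**Figure D4:**
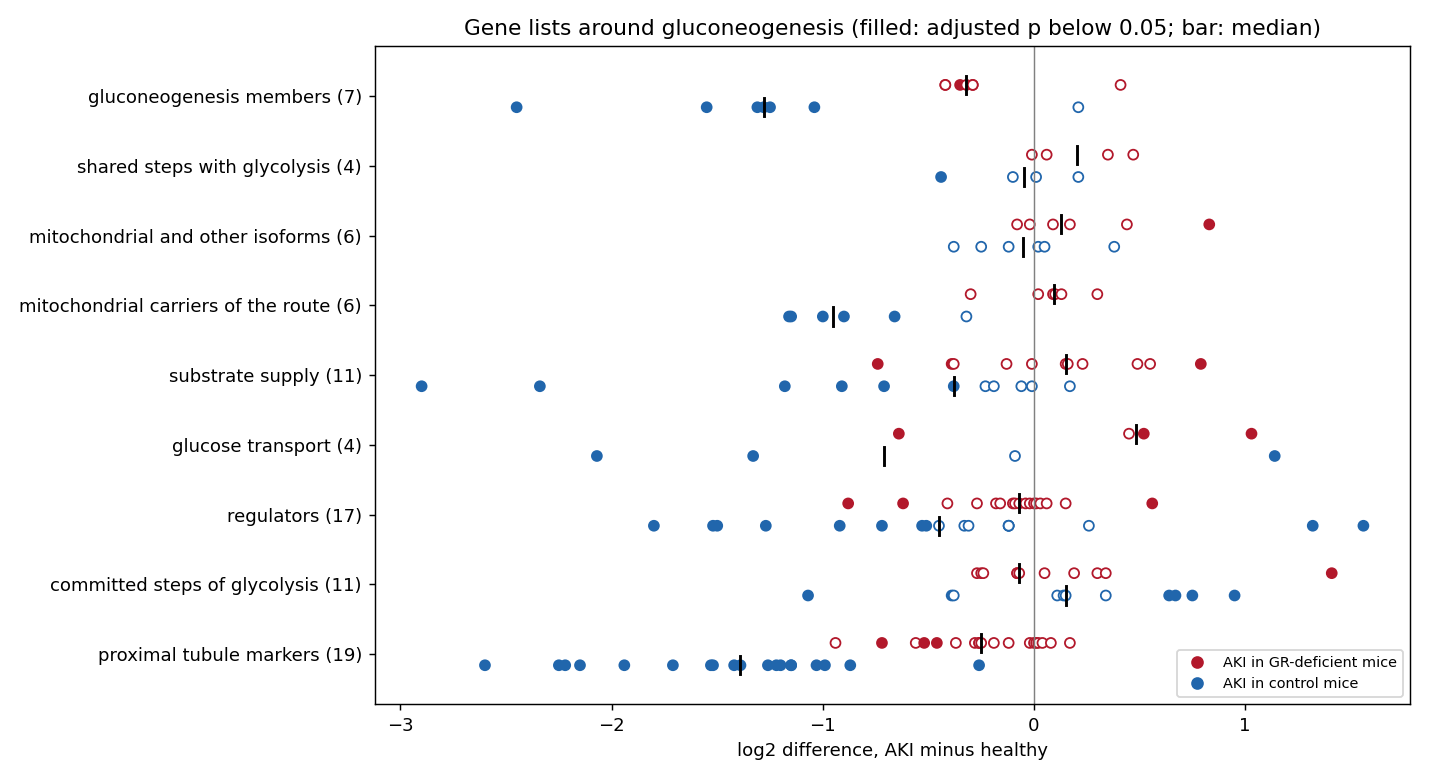
Log2 difference of AKI minus healthy (x axis) for each measured gene of 9 lists (rows, with the number measured), with GR-deficient mice above control mice in each row, filled points for an adjusted p below 0.05 and a bar at the list's median. The 7 gluconeogenesis genes have medians of -0.32 in GR-deficient and -1.28 in control mice, and the 19 proximal tubule markers -0.25 and -1.39.

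Among the isoforms and partners of the 7 genes, few were called. Pck2, the mitochondrial counterpart of Pck1, differed by 0.17 (adjusted p = 0.447) in AKI in GR-deficient mice and 0.05 (adjusted p = 0.811) in control mice. Mdh2, the mitochondrial malate dehydrogenase, differed by -0.02 (adjusted p = 0.931) in GR-deficient mice and -0.25 (adjusted p = 0.0512) in control mice, and Got2, the mitochondrial aminotransferase, by 0.09 (adjusted p = 0.746) in GR-deficient mice and -0.12 (adjusted p = 0.563) in control mice. G6pc3, the widely expressed phosphatase, differed by 0.44 (adjusted p = 0.19) in GR-deficient mice and -0.38 (adjusted p = 0.14) in control mice, and its interaction was 0.82 (adjusted p = 0.0473), a call that 10 of 21 other settings kept. Fbp2, the muscle isoform, rose by 0.83 in AKI in GR-deficient mice (adjusted p = 0.00922) and differed by 0.38 in control mice (adjusted p = 0.0999). The Fbp2 interaction of 0.45 was not called (adjusted p = 0.255). Of 4 measured steps that glycolysis shares, 0 were called in GR-deficient mice and 1 in control mice, Tpi1, triose phosphate isomerase (-0.44, adjusted p = 0.0025), which quantile and cyclic loess normalization did not call.

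Of 6 measured mitochondrial carriers, 0 were called in AKI in GR-deficient mice, 5 fell in control mice, and 6 were higher with GR deficiency in AKI. Over 22 other settings 0 to 1 fell in GR-deficient mice, 5 to 6 fell in control mice, and 4 to 6 were higher with GR deficiency in AKI. With GR deficiency in AKI the call of Slc25a1 (0.44, adjusted p = 0.0256) held in 14 of 22 other settings, and cyclic loess lost that of Mpc1. Slc25a12 and Slc25a13, the aspartate-glutamate carriers, fell in control mice by 1.15 (adjusted p = 3.13e-05) and 0.90 (adjusted p = 2.12e-05). Slc25a11, which exchanges malate and oxoglutarate, fell by 1.00 (adjusted p = 2.27e-05), and Mpc1, a subunit of the pyruvate carrier, fell by 0.66 (adjusted p = 5.96e-05). Mpc1 differed by -0.30 in GR-deficient mice (adjusted p = 0.0819), and its interaction of 0.36 was not called (adjusted p = 0.0934). These carriers thus fell with Pcx and Mdh1. Of the malate-aspartate shuttle Got1 was not called in control mice, and neither were Mdh2 (-0.25, adjusted p = 0.0512) and Got2 (-0.12, adjusted p = 0.563).

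Of 11 measured genes of substrate supply, 1 rose and 2 fell in AKI in GR-deficient mice, and 6 fell and 0 rose in control mice. Slc5a12, a sodium-coupled lactate transporter of the brush border, measured 10.85, 12.01 and 11.73 in GR-deficient AKI mice and 11.19, 12.39 and 12.15 in GR-deficient healthy mice, against 9.47, 8.99 and 10.17 in control AKI mice and 12.52, 12.27 and 12.53 in control healthy mice. The groups overlapped in GR-deficient mice (-0.38, adjusted p = 0.599) and were far apart in control mice, where it fell by 2.90 ± 0.34 (adjusted p = 1.16e-05), and the interaction was 2.51 ± 0.48 (adjusted p = 0.00337). Slc5a8, the second such transporter, fell by 0.74 in GR-deficient mice (adjusted p = 0.0156), a call lost without GR-deficient AKI replicate 1 (adjusted p = 0.103) or GR-deficient healthy replicate 2 (0.0749) or 3 (0.0514), and by 2.34 in control mice (adjusted p = 8.71e-08). Khk, ketohexokinase, differed by -0.01 in GR-deficient mice and fell by 1.18 in control mice (adjusted p = 4.54e-06). Ldhb, a lactate dehydrogenase subunit, fell by 0.71 in control mice (adjusted p = 8.65e-05), and its fall of 0.39 in GR-deficient mice (adjusted p = 0.045) was kept in only 7 of 22 other settings.

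The 4 glucose transporters did not move together. Slc2a2, the basolateral exit route for glucose in the proximal tubule, measured 10.98, 11 and 11.11 in GR-deficient AKI mice and 10.10, 10.91 and 10.73 in GR-deficient healthy mice, against 9.29, 9.46 and 10.73 in control AKI mice and 11.31, 11.12 and 11.06 in control healthy mice. It differed by 0.45 in GR-deficient mice (adjusted p = 0.453) and fell by 1.33 in control mice (adjusted p = 0.0025). Its level was higher with GR deficiency in AKI by 1.2 (adjusted p = 0.00933), a call lost without control AKI replicate 2 (adjusted p = 0.0513). Slc5a2, the main glucose reabsorber of the early proximal tubule, fell by 0.64 in GR-deficient mice (adjusted p = 0.0123), a call lost without GR-deficient AKI replicate 1 (adjusted p = 0.0842) or 2 (0.0589), and by 2.07 in control mice (adjusted p = 5.53e-08). Slc5a1, the high-affinity reabsorber, rose by 1.03 in GR-deficient mice (adjusted p = 0.00337) and differed by -0.09 in control mice (adjusted p = 0.797), with an interaction of 1.12 ± 0.24 (adjusted p = 0.0066). Slc2a1, the widely expressed glucose transporter, rose by 0.52 in GR-deficient mice (adjusted p = 0.0191), a call kept in 15 of 22 other settings, and by 1.14 in control mice (adjusted p = 3.1e-06).

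Among 17 measured regulators, 1 rose and 2 fell in AKI in GR-deficient mice, and 2 rose and 8 fell in control mice. Hnf4a, a nuclear receptor that drives the proximal tubule programme, measured 11.98, 11.95 and 12.03 in GR-deficient AKI mice and 11.65, 12.10 and 12.44 in GR-deficient healthy mice, against 10.76, 10.89 and 11.18 in control AKI mice and 12.52, 12.48 and 12.38 in control healthy mice. It differed by -0.07 in GR-deficient mice (adjusted p = 0.864) and fell by 1.52 in control mice (adjusted p = 5.63e-06), with an interaction of 1.44 ± 0.23 (adjusted p = 0.00112). Ppargc1a, the coactivator that induces gluconeogenic genes in liver, differed by -0.16 in GR-deficient mice (adjusted p = 0.703) and fell by 1.5 in control mice (adjusted p = 1.98e-05). Klf15, a glucocorticoid-induced factor that raises gluconeogenic genes in liver, fell in both genotypes, by 0.88 in GR-deficient mice (adjusted p = 0.00603) and by 1.80 in control mice (adjusted p = 8.07e-07). Its interaction was 0.92 ± 0.22 (adjusted p = 0.0144). With GR deficiency Klf15 was higher in AKI by 0.84 (adjusted p = 0.00174) and differed by -0.09 in healthy mice (adjusted p = 0.911). Foxo1, which is switched off by insulin signalling, differed by -0.04 in GR-deficient mice and fell by 0.53 in control mice (adjusted p = 0.00265). The Foxo1 interaction of 0.49 was not called (adjusted p = 0.0698), nor was its difference with GR deficiency in AKI (0.18, adjusted p = 0.358). Nr4a1, an immediate early nuclear receptor, rose by 0.56 in GR-deficient mice (adjusted p = 0.0158), a call lost without GR-deficient AKI replicate 1 (adjusted p = 0.115) or GR-deficient healthy replicate 1 (0.0534), and by 1.32 in control mice (adjusted p = 1.12e-06). Cebpb, a transcription factor of the acute phase response, differed by 0.15 in GR-deficient mice (adjusted p = 0.727) and rose by 1.56 in control mice (adjusted p = 1.26e-05).

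Of 11 measured genes of the committed steps of glycolysis, the reverse route, 1 rose and 0 fell in AKI in GR-deficient mice and 4 rose and 2 fell in control mice. In control mice Pkm, pyruvate kinase, rose by 0.75 (adjusted p = 0.000591), Hk2, a hexokinase, by 0.64 (adjusted p = 0.00231) and Pfkp, a phosphofructokinase, by 0.67 (adjusted p = 0.00639), while Pfkm, another phosphofructokinase, fell by 1.07 (adjusted p = 1.01e-05). Pklr, the pyruvate kinase of liver and kidney, named here after its values were seen, was the gene called in GR-deficient mice. It measured 10.35, 10.27 and 10.06 in GR-deficient AKI mice and 8.45, 8.96 and 9.03 in GR-deficient healthy mice, against 9.91, 9.63 and 10.84 in control AKI mice and 9.20, 9.10 and 9.22 in control healthy mice. It rose in both genotypes with no overlap, by 1.41 in GR-deficient mice (adjusted p = 0.00422) and by 0.95 in control mice (adjusted p = 0.00667), and its interaction of 0.46 was not called (adjusted p = 0.458). With GR deficiency in AKI 1 of the 11 was higher and 3 were lower.

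The genes whose profile lay nearest to each of the 7 were found from log2 values centred over the 12 arrays, a description with no test. Nearness was the root mean square difference over those arrays, and predicted genes, clone names and the 7 genes themselves were left out. For Pck1 the nearest were Scn4b (0.258) and Tfec (0.269), and for G6pc Slc13a2 (0.216) and Amacr (0.238). Fbp1 had Fbln5 (0.086) and Enpp5 (0.091), Mdh1 had Faah (0.068) and Mettl7a1 (0.069), Pcx had Rab11fip3 (0.095) and Chdh (0.096), and Slc37a4 had Fhl1 (0.104) and Pgap6 (0.105). For Got1 they were Dnpep (0.092) and Cd82 (0.1). Within the 7 genes, Pcx and Slc37a4 were 0.14 apart and Fbp1 and Mdh1 0.143 apart, whereas the nearest to Got1 was Mdh1 at 0.595. All arrays of a group share their injury state, so nearness here mostly reflects the group means.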

How the data were processed

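The 7 genes, the lists and the tests were chosen with earlier results of these data known, so none is an independent check. The log2 expression values were deposited by the authors, who per the submitters' processing notes used RMA (background correction, normalization between arrays, 1 value per probe set), affy and oligo. For these the sources used here give no version. Of 35556 probe sets, 21789 carried exactly 1 gene symbol, 1621 several and 12146 no entry in the annotation. Symbols of 999 genes had several such probe sets, and that with the highest mean was kept, which left 19938 genes with no filter on dim ones. Groups and replicate numbers came from the sample titles, and all 12 columns were used. No 2 arrays were identical.

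In R 4.3.3, limma 3.58.1 (lmFit, eBayes) fitted 4 group means with 8 residual degrees of freedom and 5 contrasts, with two-sided p-values adjusted by Benjamini-Hochberg over all genes. The number of arrays, 3 per group, limits the precision. The fits were tested on simulated data. Genes named beyond the 7 are, per pathway list, up to 4 with the smallest p in AKI in control mice, with the isoforms Pck2, Mdh2, Got2, G6pc3 and Fbp2 and the regulators Klf15, Ppargc1a, Hnf4a and Foxo1. Of the proximal tubule markers the 3 with the highest means are named. Slc22a7, the 5 myeloid markers called, Apoa1 and Pklr were named after their values were seen. The marker-relative values repeat the fit after subtracting each array's proximal tubule marker mean. Alternatives changed the normalization, genes tested, probe set rule, variance model, array weights, arrays fitted and threshold. Counts over the lists under these alternatives were added after seeing the data. Promoters came from RefSeq (GRCm38.p6).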

Additional observations from a re-analysis of the deposited data

Results flagged for a closer look

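The response to AKI differed between GR-deficient and control mice by the test of the difference itself for 5 of the 7 genes, as the AKI response in GR-deficient mice minus that in control mice (limma, adjusted over all genes, n = 3 arrays a group). The difference was 2.03 for G6pc (adjusted p = 0.00258), 1.27 for Slc37a4 (adjusted p = 0.00607), 1.02 for Fbp1 (adjusted p = 0.00165), 0.86 for Pcx (adjusted p = 0.0137) and 0.69 for Mdh1 (adjusted p = 0.00296), on the log2 scale, where 7.39% of all genes were called in this direction. Relative to the proximal tubule marker mean of each array the same differences were 0.81 for G6pc, 0.04 for Slc37a4, -0.21 for Fbp1, -0.37 for Pcx and -0.53 for Mdh1.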

How the results depend on the processing

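The falls of Pck1, G6pc, Fbp1, Pcx, Mdh1 and Slc37a4 in AKI in control mice were called in all 21 alternatives apart from the stricter threshold and the marker-relative values. With GR deficiency in AKI the same held for G6pc, Fbp1, Mdh1 and Slc37a4, and for the interaction in all 20 alternatives for G6pc, Fbp1, Pcx and Slc37a4. Relative to the proximal tubule marker mean the sign turned for Pck1 (0.21), Fbp1 (0.16), Pcx (0.19) and Mdh1 (0.42) in AKI in control mice, for Fbp1 (-0.03), Pcx (-0.34), Mdh1 (-0.25) and Slc37a4 (-0.11) with GR deficiency in AKI, for Fbp1 (0.18), Pcx (0.02) and Mdh1 (0.29) in healthy mice, and for the interaction of Pck1 (-0.29), Fbp1 (-0.21), Pcx (-0.37), Mdh1 (-0.53) and Got1 (-1.02). Of differences near 0, Mdh1 in healthy mice became 0.06 after quantile normalization, 0.10 after cyclic loess and 0.02 without GR-deficient healthy replicate 2; the interaction of Got1 became -0.06 and -0.03 under those scalings; and array weights gave -0.02 for Got1 in AKI in control mice, 0.09 for Got1 with GR deficiency in AKI and -0.15 for Pck1 in healthy mice, which ran from -0.09 to 0.27 over arrays left out.

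The count of all genes called moved more. In AKI in GR-deficient mice it was 926, 1419 over the brighter genes, 3196 with array weights, 316 at a threshold of 0.01 and 277 to 1448 over arrays left out, and the 656 higher and 270 lower calls became 659 and 436 after quantile and 687 and 447 after cyclic loess normalization. In AKI in control mice 5715 became 9648 with array weights and 4651 to 6188 over arrays left out. With GR deficiency in AKI 3460 became 7000 with array weights, 2062 at 0.01 and 2414 to 3906 over arrays left out. In healthy mice 29 became 61 after cyclic loess, 74 over the brighter genes, 71 with a trended robust prior, 301 with array weights, 14 with only the 2 groups, 8 at 0.01 and 10 to 115 over arrays left out. For the interaction 2283 became 4905 with array weights, 1110 at 0.01 and 1556 to 2696 over arrays left out, and the 1473 higher and 810 lower calls became 1377 and 1219 after quantile normalization. The cause of these shifts was not tested.

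Replicate numbers were not treated as pairs in the main fit. Of 18 same-numbered pairs 3 correlated above 0.1 in their deviations from the group means (range -0.41 to 0.252). Differently numbered pairs were not compared, so these values cannot show whether samples were paired. With the replicate block Mdh1 in AKI in GR-deficient mice was not called (adjusted p = 0.079), the interaction of Pck1 was (0.93, adjusted p = 0.0426), and no other call among the 7 genes changed. A fit with only 2 groups was not run for the interaction, which needs all 4.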
